A study of Mus musculus with 6 samples.

Results

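Small nucleolar RNAs (snoRNAs) and small Cajal body RNAs (scaRNAs) were followed through their fragments in small RNA libraries from mouse skeletal muscle. The members are all transcripts of the deposited table of other RNAs whose gene has the biotype snoRNA or scaRNA in the GENCODE M21 annotation of GRCm38. They number 149 of 351 listed transcripts, 143 annotated as snoRNA and 6 as scaRNA. The TAC group holds 3 libraries from mice with transverse aortic constriction, an operation that narrows the aorta and loads the heart. The Sham group holds 3 libraries labelled as controls. All mice were male, of genotype C57BL6, 16 weeks old and fed normal chow, with a treatment time of 8 weeks in the record of each sample and a harvest at 8 to 10 weeks in the protocol. No label says which muscle was taken or whether animals were pooled, and nothing but the sample titles says that the 3 libraries of a group come from separate mice, so the p-values measure the spread between these libraries. The series title asks how muscle miRNAs relate to insulin resistance in heart failure. SnoRNA fragments are a by-product of such libraries, and fragments short enough to be cloned need not follow the level of the full-length snoRNA.

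SnoRNAs are stable nuclear RNAs that work as ribonucleoproteins on other RNAs. Box C/D snoRNAs carry a C box near the 5′ end and a D box near the 3′ end and guide 2′-O-methylation, while H/ACA snoRNAs fold into hairpins, end in an ACA box and guide pseudouridylation. Most of both kinds act on ribosomal RNA. A few, such as U3, U8 and U14, are needed for the cleavage of the ribosomal precursor, and scaRNAs guide modification of spliceosomal RNAs in Cajal bodies. In mammals most are cut from introns of host genes, many of which encode ribosomal proteins or have no protein product.

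By name, biotype or boxes, 117 members were box C/D, 20 were H/ACA, 7 were scaRNA and 5 were not assigned. The class came from the name for 76 members and from name or biotype for 7. The boxes were searched to class the other 66, which include the 5 not assigned. The C box was searched as TGATGA with at most 1 mismatch in the first 25 bases, and the D box as CTGA in the last 25 bases, on the transcript strand. The ACA box was searched as ACA ending 3 bases before the annotated 3′ end. Of all 1558 annotated mouse snoRNAs and scaRNAs, 30.9% held the C box letters, 56.5% the D box letters and 19.3% the ACA. Among the members the shares were 79.2%, 85.9% and 15.4%. These letters were used to class the 66 members, 5 of which they left unassigned, and were not tested. Lengths ran from 60 to 414 bases with a median of 79, and the median was 76 for C/D and 131 for H/ACA members. A host gene on the same strand held 133 members, which fall into 80 hosts, and 16 members were intergenic. Of the 133, 71 were intronic in all transcripts of the host and 62 in some, and 32 lay in genes named Rpl or Rps, which encode ribosomal proteins. At 90% identity or more, 29 members fell into 9 groups of near copies, between which reads can be split. An exon of another listed transcript, such as one of Gas5, Snhg5 or Snhg12, holds all or part of 11 members, 2 of them (Snord50a and Snord50b) also among the near copies, so their reads could be counted at either.

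The sequences below, from the GENCODE M21 transcripts, are those of the H/ACA members on which the comparison turns. Capitals mark the ACA box, except in Snora44, where they mark the 22 bases found again among the unannotated sequences. Snora44 lies at chr4:132309941-132310069 on the plus strand, Gm25788 at chr4:123291344-123291474 and Gm22154 at chr4:123293152-123293282, both on the plus strand, and Gm27607 at chr1:51938974-51939095 on the minus strand.
Snora44: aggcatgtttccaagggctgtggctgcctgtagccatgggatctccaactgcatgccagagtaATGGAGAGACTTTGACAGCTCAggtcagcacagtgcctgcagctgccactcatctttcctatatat
Gm25788: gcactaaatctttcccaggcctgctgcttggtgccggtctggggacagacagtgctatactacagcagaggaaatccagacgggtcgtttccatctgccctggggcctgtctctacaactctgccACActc
Gm22154: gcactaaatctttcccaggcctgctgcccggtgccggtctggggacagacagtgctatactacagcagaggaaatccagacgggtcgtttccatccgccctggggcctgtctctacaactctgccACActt
Gm27607: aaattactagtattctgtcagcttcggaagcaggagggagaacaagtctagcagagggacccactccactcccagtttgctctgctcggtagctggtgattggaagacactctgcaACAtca

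The box C/D members below are among those with the smallest p in each direction and are discussed further on. Capitals mark the C box and the D box as the search found them. Snord70 lies at chr1:59691934-59692020, Gm25091 at chr5:146834834-146834904, AF357425 at chr12:109636012-109636084, Gm26224 at chr1:161035394-161035473 and Gm23969 at chr2:26911261-26911334, each on the plus strand.
Snord70: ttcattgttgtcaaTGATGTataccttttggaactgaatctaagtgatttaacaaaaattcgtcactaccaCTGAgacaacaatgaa
Gm25091: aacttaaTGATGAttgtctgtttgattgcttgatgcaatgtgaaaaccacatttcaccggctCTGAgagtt
AF357425: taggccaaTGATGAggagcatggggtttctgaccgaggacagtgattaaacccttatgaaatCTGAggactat
Gm26224: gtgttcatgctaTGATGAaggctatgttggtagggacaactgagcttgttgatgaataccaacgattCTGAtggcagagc
Gm23969: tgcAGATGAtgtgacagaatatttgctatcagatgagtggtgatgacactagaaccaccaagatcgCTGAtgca

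Other-RNA counts per library ran from 77648 to 102386 unique molecular identifiers (UMIs) in TAC and from 66220 to 182383 in Sham. Of these, 4107 to 7164 in TAC and 4893 to 8556 in Sham fell on members, while ribosomal RNA took 56.91% to 63.06% in TAC and 65.44% to 66.83% in Sham. Each member had at least 1 UMI in 5 or more of the 6 libraries. Libraries numbered 3 stood apart in both groups. Over the members, chi-square per degree of freedom was 1.34 between TAC 1 and TAC 2 and 1.36 between Sham 1 and Sham 2, against 2.88 to 4.43 for pairs with a library numbered 3. Reads with a defective UMI made up 0.706% of TAC 3 and 2.37% of Sham 3, against 0.381% to 0.678% in the other 4 libraries. The 7 muscle miRNA markers summed to 601935 to 616356 in each 1000000 miRNA UMIs in TAC and 534199 to 615559 in Sham, with 2 of them at 0 in TAC 1 and in TAC 2. The 3 liver markers summed to 215 to 2300 in TAC and 164 to 292 in Sham, and the 3 listed of 5 epithelial and kidney markers to 1.31 to 6.26 in TAC and 22.9 to 68.6 in Sham. The 5 blood markers summed to 970 to 1143 in TAC and 1137 to 1593 in Sham, the endothelial miR-126a-3p to 26820 to 28266 in TAC and 28894 to 34261 in Sham, and neural miR-9-5p to 46.2 to 52.9 in TAC and 50.0 to 91.6 in Sham. None of miR-200c-3p, miR-141-3p and miR-124-3p was listed. The part of these markers and of the libraries numbered 3 in the results was not tested, apart from the values given without those libraries. In bulk tissue, fewer cells of a type and less RNA per cell cannot be told apart.

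No member passed the threshold in the comparison of TAC with Sham. Members took 4.87%, 5.29% and 6.997% of the other-RNA UMIs in TAC 1, 2 and 3, and 4.69%, 5.31% and 7.39% in Sham 1, 2 and 3. The means were 5.72% ± 1.13 in TAC and 5.80% ± 1.41 in Sham (SD, n = 3 each), and within each group the library numbered 3 was the highest. Of the 149 members 112 had enough UMIs for the edgeR quasi-likelihood test, which was fitted to all other RNAs together, with 245 tested. At an adjusted p of 0.05, 0 of the 112 members were called, where 2.86% of all tested other RNAs were called, all of them higher in TAC. At an unadjusted p under 0.05 there were 15 members, 7 higher and 8 lower in TAC. Of all tested other RNAs, 18.4% had such a p, 9.39% higher and 8.98% lower. DESeq2 called 1 member, Gm25091 (background 4.49%), and limma-voom called 0 (2.45%). Scaled by library size alone, 5 members were called, all higher in TAC (6.12%), and at a threshold of 0.1 there were 6 (8.98%). The median log2 fold change was -0.10 over the 112 members and -0.04 over the 245 other RNAs. Over all 149 members, the mean CPM (UMIs in 1000000 other-RNA UMIs after TMM scaling) was higher in TAC for 67 and lower for 82. The groups did not overlap for 17 members higher in TAC, against a background of 12.3% of the 351 listed RNAs, and for 16 members lower in TAC, against 9.69%.

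Same-numbered libraries of the groups deviated together, and so did libraries 1 and 2 across the groups, as set out with the processing. The fit with the replicate number as a block is given beside the members it moves. With the replicate block 16 members were called, 7 higher and 9 lower in TAC, where 15.1% of all tested other RNAs were called, 7.76% higher and 7.35% lower. The 7 were Snora44, Gm25788, Gm22154, Gm27607, Snord70, Gm25091 and Snord14c. The 9 were Gm26224, Snord21, Gm25296, Snord95, Gm23969, Gm25506, Snord100, AF357425 and Gm23262. The labels do not say what the number marks, and the members' share of calls was close to the background in this fit too.

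H/ACA members lay mostly higher in TAC. Of the 20, 15 had a higher mean CPM in TAC and 5 a lower one, where of all 351 listed RNAs 165 had a higher one and 186 a lower one. The groups were apart with TAC higher for 7 of them, where the share over all listed RNAs was 12.3%, and with TAC lower for 1, Gm23346, where it was 9.69%. Of the 12 tested, 9 had a log2 fold change above 0, with a median of 0.51, and 5 had an unadjusted p under 0.05, all higher in TAC, against 9.39% of all tested other RNAs. None was called in the unblocked fit, and 4 were called higher with the replicate block, against 7.76% of all tested other RNAs. The members in these counts are not all independent. Among the 7, Gm25788 and Gm22154 are 96.9% identical, and both also stand among the 5 and the 4. Gm25133 and Snora30, also among the 7, are 98.5% identical, and Snora44 lies in an exon of the listed Snhg12 transcript. The 93 tested C/D members had a median of -0.14, with 41 above 0 and 52 below. For comparison, the 30 tested spliceosomal RNAs (snRNA) had a median of -0.07 and the 14 tested RNAs of the biotype misc_RNA, which holds 7SK and Y RNAs, a median of -0.11, with 0 called in either.

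Summed over the class, the H/ACA level was 4816, 4725 and 4837 CPM in TAC 1, 2 and 3, and 3383, 3255 and 2937 CPM in Sham 1, 2 and 3. The groups did not overlap, and the log2 ratio of the means was 0.59. H/ACA fragments made up 10.05%, 9.11% and 7.51% of all member UMIs in the TAC libraries, and 6.27%, 5.92% and 4.21% in the Sham libraries. The class sum rested largely on a few members. Without Snora44, Gm27607, Gm25788 and Gm22154 it was 2556, 2274 and 2733 CPM in TAC and 2316, 1987 and 2010 CPM in Sham, which overlap, with a log2 ratio of 0.26. In 1000000 miRNA UMIs the whole class stood at 164, 174 and 235 in TAC and 156, 133 and 175 in Sham, where Sham 3 lay above TAC 1 and just above TAC 2, and the log2 ratio was 0.31. The summed C/D level was 41802, 45850 and 57916 CPM in TAC and 48701, 49872 and 64677 CPM in Sham, with overlap. The share of member UMIs on members shorter than 76 bases moved with the group as well, at 42.95%, 43.56% and 46.83% in TAC and 47.21%, 47.41% and 51.81% in Sham, and its part in the H/ACA difference was not tested.

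**Figure D1:**
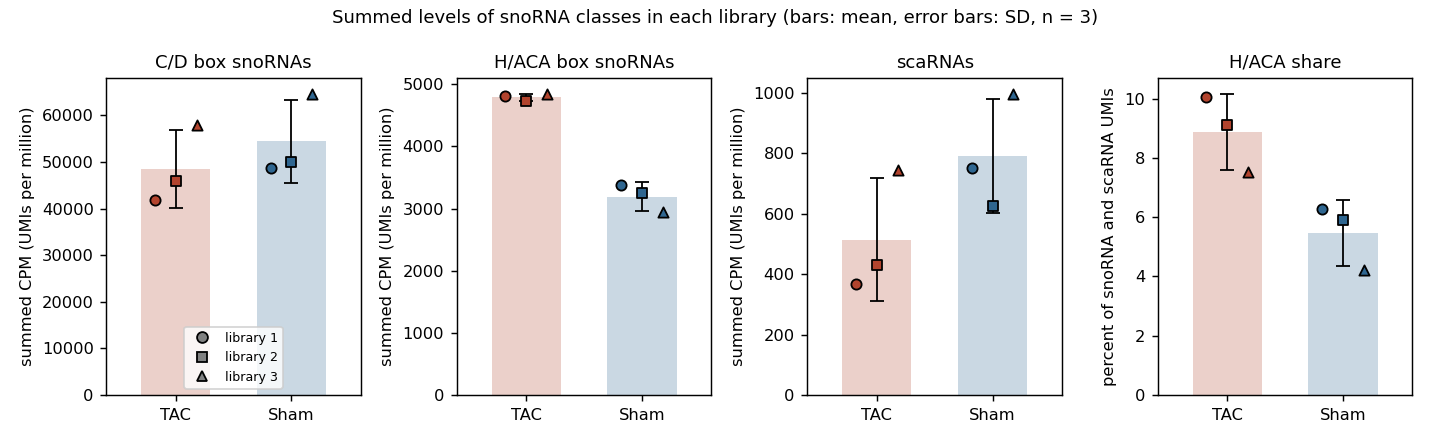
Summed CPM of the 117 C/D members, the 20 H/ACA members and the 7 scaRNAs, and the H/ACA share of member UMIs in percent, for TAC (left) and Sham (right); bars are means, error bars SD and points the 3 libraries, with a marker for each library number. The H/ACA sums lie between 4725 and 4837 CPM in TAC and between 2937 and 3383 CPM in Sham, while the C/D and scaRNA sums overlap between the groups.

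**Figure D2:**
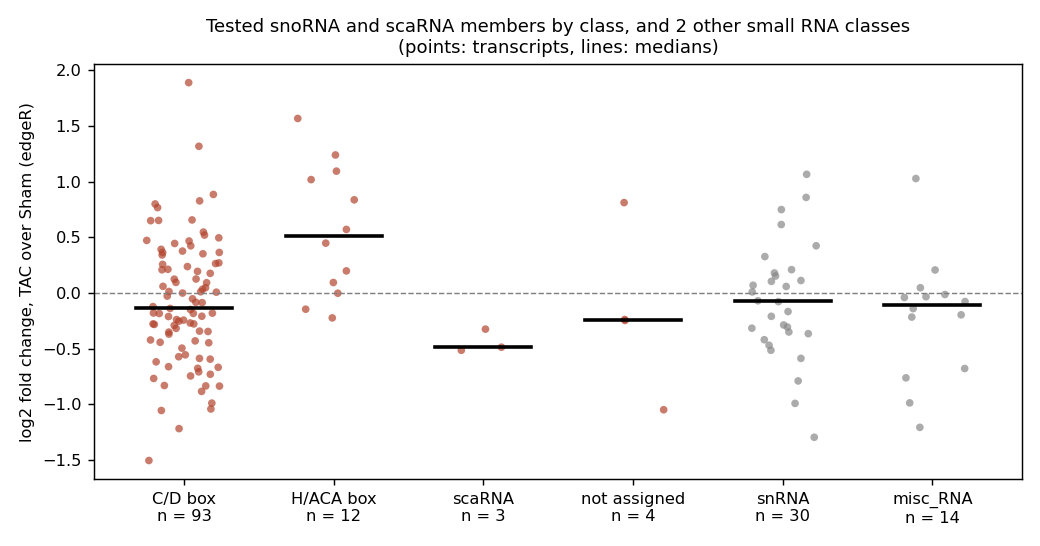
Log2 fold change, TAC over Sham, of each tested transcript (points) with the class median (line), for C/D, H/ACA, scaRNA and unassigned members and for snRNA and misc_RNA. The H/ACA median is 0.51 and the C/D median -0.14, and 9 of 12 H/ACA points lie above 0.

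Snora44, whose human counterpart also sits in the noncoding host gene SNHG12, had the smallest p of all members. It had 583, 733 and 387 CPM in TAC 1, 2 and 3, and 271, 208 and 228 CPM in Sham 1, 2 and 3. All 3 TAC values exceeded those of Sham, on 43 to 58 UMIs in TAC and 16 to 43 UMIs in Sham. On the log2 scale the difference was 1.24 (SE 0.33), and the edgeR adjusted p was 0.0704, or 0.0127 with the replicate block. Without TAC 3 the adjusted p was 0.00878, and on leaving out any other library it ran from 0.103 to 0.209. Snora44 lies wholly inside an exon of the listed Snhg12 transcript, which had 194, 139 and 216 CPM in TAC and 50.5, 83.2 and 42.8 CPM in Sham. Between the groups that transcript differed by 1.63 on the log2 scale (SE 0.43, edgeR adjusted p = 0.0704, 0.0345 with the replicate block). The reads of the snoRNA and of its host cannot be told apart by position alone here.

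A fragment of Snora44 also stood among the 1832 unannotated sequences that the files list by mapping position. It starts at base 64 of the snoRNA, matches it over 22 bases, capitalised above, and ends in bases that do not match. It had 8, 10 and 5 UMIs in TAC 1, 2 and 3, and 6, 1 and 0 in Sham 1, 2 and 3, or 23 in TAC and 7 in Sham. These are raw UMIs from libraries of unequal depth, and the counts are small.

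Both H/ACA snoRNAs in introns of Pabpc4, which encodes a cytoplasmic poly(A)-binding protein, had higher means in TAC. Gm25788 had 409, 341 and 351 CPM in the TAC libraries, and 208, 156 and 171 CPM in the Sham libraries. The difference on the log2 scale was 1.02 (SE 0.30), with an edgeR adjusted p of 0.0877 and 0.0149 with the replicate block. With each library left out in turn, the edgeR adjusted p of Gm25788 ran from 0.0683 to 0.335. Gm22154 was more abundant, with 869, 1023 and 1160 CPM in TAC and 486, 739 and 485 CPM in Sham. The groups did not overlap for either. The log2 fold change of Gm22154 was 0.84 (SE 0.30, edgeR adjusted p = 0.141, 0.0418 with the replicate block). Leaving out each library in turn gave Gm22154 an edgeR adjusted p from 0.164 to 0.356. The pair is 96.9% identical, and Gm25788 is 97.7% identical to Gm24620 in Kif13a, so the 3 can share reads and are not independent. Gm24620 had 245, 164 and 153 CPM in TAC and 139, 156 and 71.3 CPM in Sham, which overlap.

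The intergenic Gm27607 had 399, 354 and 207 CPM in TAC and 101.0, 166 and 42.8 CPM in Sham. The groups were apart, on 23 to 39 UMIs in the TAC libraries and 3 to 16 in the Sham libraries. A log2 fold change of 1.57 (SE 0.45) had an edgeR adjusted p of 0.0792 and 0.00334 with the replicate block. Gm27607 passed without TAC 3 (0.00959) and without Sham 2 (0.0453), and on leaving out any other library the adjusted p ran from 0.110 to 0.256, with a log2 fold change from 1.25 to 2.05 over the 6. The near copies Snora30, with 164, 114 and 126 CPM in TAC and 50.5, 83.2 and 57.0 CPM in Sham, and Gm25133 are 98.5% identical. Snora30 had a log2 fold change of 1.09 (SE 0.44, edgeR adjusted p = 0.192), and Gm25133, with 10, 12 and 7 UMIs in TAC and 7, 6 and 2 UMIs in Sham, was not tested. Gm22711, also not tested, had 18, 12 and 9 UMIs in TAC and 7, 4 and 3 UMIs in Sham.

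Other H/ACA members passed in neither fit. Snora64, in the ribosomal protein gene Rps2, had 573, 354 and 584 CPM in TAC and 391, 322 and 399 CPM in Sham, with a log2 fold change of 0.45 (SE 0.30, edgeR adjusted p = 0.439). Snora31, in an intron of Tpt1, had 215, 190 and 504 CPM in TAC and 366, 354 and 357 CPM in Sham, with overlapping groups and a log2 fold change of -0.22 (SE 0.39). Gm23346, in Eif2ak3, had 0, 1 and 1 UMIs in TAC and 10, 2 and 1 UMIs in Sham, too few to test.

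**Figure D3:**
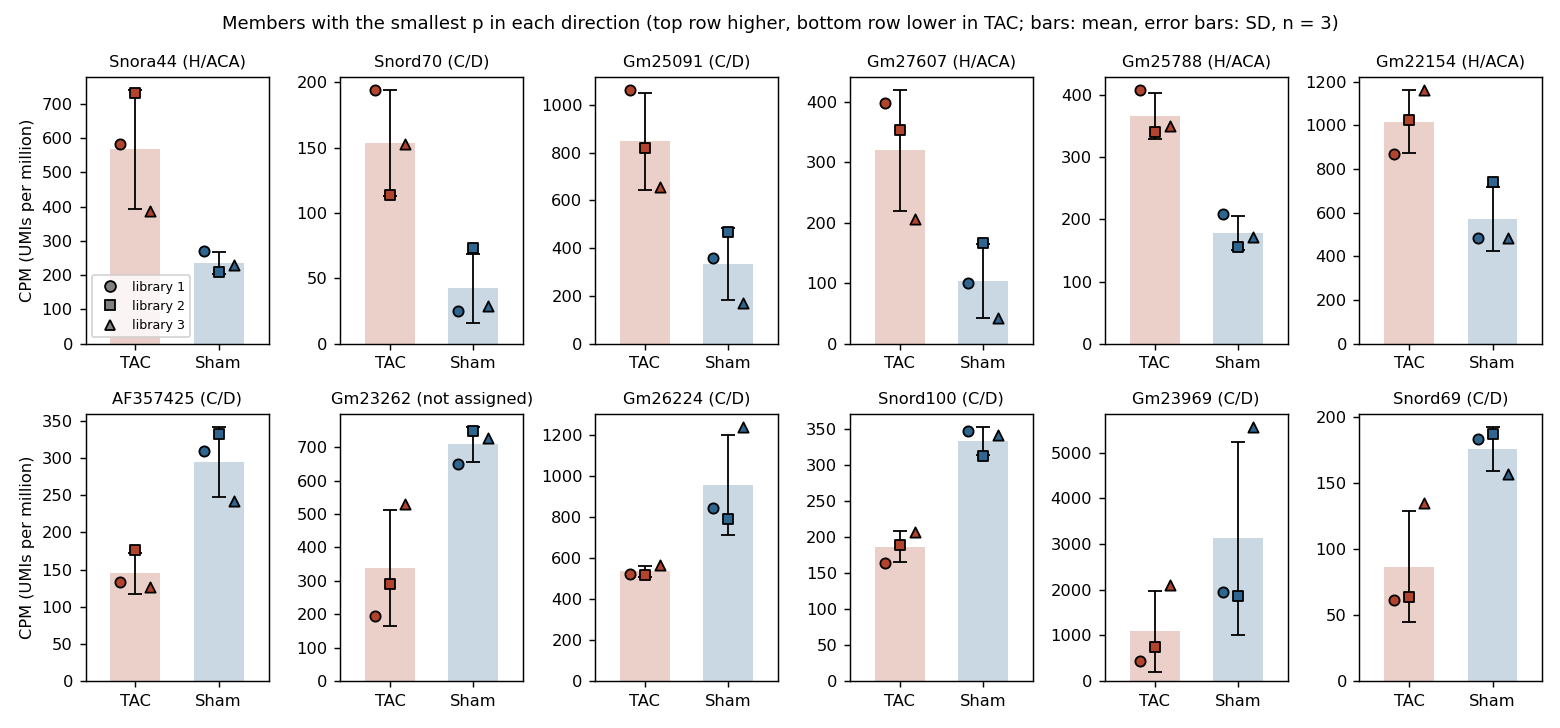
CPM in each library of the 6 members with the smallest p among those higher in TAC (top row) and of the 6 among those lower in TAC (bottom row), TAC left of Sham; bars are means, error bars SD and points libraries, with a marker for each library number. The groups do not overlap in 11 of the 12 panels, the exception being Gm23969, where TAC 3 lies at 2095 CPM, above Sham 1 and Sham 2. The 12 were chosen by p, which favours groups that lie apart, so this count is no support for a difference. Over all listed RNAs 12.3% lay apart with TAC higher and 9.69% with TAC lower.

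Among box C/D members the largest log2 fold change was that of Snord70, in an intron of Nop58, the gene of a core protein of C/D ribonucleoproteins. It had 194, 114 and 153 CPM in TAC and 25.3, 72.8 and 28.5 CPM in Sham, from 19, 9 and 17 UMIs in TAC and 4, 7 and 2 UMIs in Sham. The groups did not overlap, but the counts were low. Fitted on the log2 scale, Snord70 differed by 1.89 (SE 0.52), with an edgeR adjusted p of 0.0792 and 0.0468 with the replicate block. Without Sham 2 the log2 fold change of Snord70 was 2.55 (adjusted p = 0.0453), and leaving out the other libraries gave adjusted p up to 0.338. The 3 members in Nop56, the gene of the partner protein, had log2 fold changes from -0.34 to 0.13.

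Gm25091, in an intron of the ribosomal protein gene Rpl21, had 1063, 821 and 656 CPM in TAC and 360, 468 and 171 CPM in Sham. Every TAC library lay above every Sham library. This was a log2 fold change of 1.32 (SE 0.37) and an edgeR adjusted p of 0.0792, 0.00597 with the replicate block and 0.0421 by DESeq2, which made it the 1 member that DESeq2 called. Without TAC 3 the edgeR adjusted p of Gm25091 was 0.0159, and leaving out the other libraries gave values up to 0.256.

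AF357425 was the only listed member from the imprinted Dlk1-Dio3 region, where it lies in the noncoding RNA Rian among C/D snoRNAs, most of which have no known ribosomal target. It had 133, 177 and 126 CPM in TAC and 309, 333 and 242 CPM in Sham. All TAC libraries lay below all Sham libraries. For AF357425 the log2 fold change was -1.04 (SE 0.33), with an edgeR adjusted p of 0.0965 and 0.0213 with the replicate block. Its host Rian had 3, 0 and 2 UMIs in TAC and 5, 10 and 3 UMIs in Sham and was not tested. Snord64, from the other imprinted snoRNA region, that of Prader-Willi syndrome, had 153, 126 and 288 CPM in TAC and 227, 302 and 128 CPM in Sham, which overlap. Snord64 had a log2 fold change of -0.21 (SE 0.42).

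Of the next members lower in TAC, by p, Gm26224 lay in the noncoding Gas5 and is described with that host, and the others lay in introns of protein-coding genes. Gm23262, in an intron of Eif4g2 and of no assigned box class, had 194, 291 and 530 CPM in TAC and 650, 749 and 727 CPM in Sham. Gm23262 had a log2 fold change of -1.05 (SE 0.37) and an edgeR adjusted p of 0.141 and 0.0203 with the replicate block. It was -1.56 without TAC 3, its highest TAC library (adjusted p = 0.00938), and -0.72 without TAC 1 (0.505), and leaving out any other library gave adjusted p from 0.138 to 0.442. Snord100, in the ribosomal protein gene Rps12, had 164, 190 and 207 CPM in TAC and 347, 312 and 342 CPM in Sham, with the groups apart. The log2 fold change of Snord100 was -0.83 (SE 0.30, edgeR adjusted p = 0.141, 0.0449 with the replicate block), while its neighbour Gm23130 in Rps12 stood at -0.24 (SE 0.35). Snord69, in Gnl3, which encodes the nucleolar protein nucleostemin, had 61.4, 63.2 and 135 CPM in TAC and 183, 187 and 157 CPM in Sham. Snord69 had a log2 fold change of -0.99 (SE 0.42, edgeR adjusted p = 0.216), and Snord19 in the same gene -0.18 (SE 0.50).

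Gm23969, in an intron of the ribosomal protein gene Rpl7a, varied widely between libraries. It had 440, 733 and 2095 CPM in TAC 1, 2 and 3, and 1944, 1862 and 5561 CPM in Sham 1, 2 and 3. TAC 3 lay above Sham 1 and Sham 2, and in each group the library numbered 3 was far above the other two. Over all libraries the log2 fold change was -1.50 (SE 0.59), with an edgeR adjusted p of 0.179, 0.00141 with the replicate block and 0.0100 without both libraries numbered 3. Single libraries moved it, to -2.43 without TAC 3 (adjusted p = 0.00510), -1.07 without TAC 1 (0.483) and -0.81 without Sham 3 (0.432), and the adjusted p was 0.205 to 0.455 without any other library. Gm24134, the other member in Rpl7a, stood at 0.13 (SE 0.40). Snord95 and Gm25296, which are 91.2% identical and lie in introns of Rack1, had log2 fold changes of -0.74 (SE 0.45, edgeR adjusted p = 0.383, 0.0443 with the replicate block) and -1.22 (SE 0.55, 0.268 and 0.0145). On leaving out 1 library that of Snord95 ran from -1.30 to -0.26 and that of Gm25296 from -1.86 to -0.62, the lowest of each without TAC 3 (adjusted p = 0.0633 and 0.0364). Snord95 had 481, 379 and 1034 CPM in TAC and 764, 749 and 1725 CPM in Sham, which overlap in the same way as Gm23969.

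For most tested members, but not all, the libraries numbered 3 deviated the same way from the others of their group. With a pseudocount of 10 CPM, the ratio of the library numbered 3 to the mean of the other two of its group was above 1 in both groups for 49 tested members, below 1 in both for 27, and on opposite sides for 36. Across the 112 tested members, which share the same libraries, Pearson's r between the log2 ratios of TAC 3 and of Sham 3 was 0.52. The median log2 ratio of the C/D members was 0.22 in TAC 3 and 0.22 in Sham 3, and that of the H/ACA members -0.11 in TAC 3 and -0.15 in Sham 3. The number of members called was 11 of 117 without TAC 3 (background 9.85%), 0 of 119 without Sham 3 (4.06%) and 11 of 115 without both (12.4%). It was 2 of 121 without Sham 2 (3.44%) and 0 without TAC 1 (1.51%), TAC 2 (2.58%) or Sham 1 (1.12%).

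**Figure D4:**
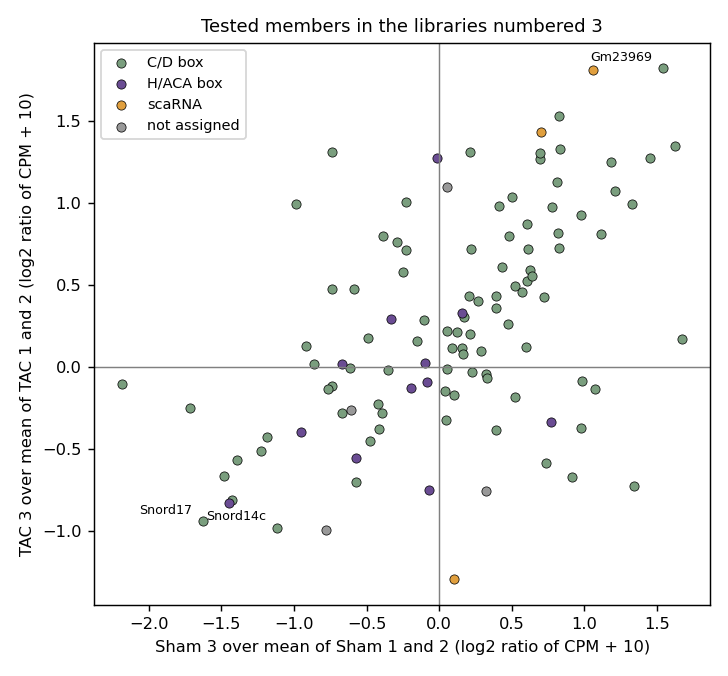
Log2 ratio of TAC 3 to the mean of TAC 1 and 2 (vertical axis) against that of Sham 3 to the mean of Sham 1 and 2 (horizontal axis), each of CPM + 10, for the 112 tested members, coloured by class. Of the points, 49 lie at the upper right and 27 at the lower left, and Gm23969 lies at the top with 1.82 in TAC 3 and 1.54 in Sham 3.

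The groups overlapped for the 12 most abundant members by mean CPM other than Gm25789 and Gm22154. Per kilobase of transcript and over all 6 libraries, the highest levels were 67378 CPM for Snord85, 40403 for Gm25789 in Gas5, 28455 for Gm23969 and 28347 for Gm26109 in Hspa9. Snord85 had 3436, 4498 and 6060 CPM in TAC and 4828, 4431 and 6260 CPM in Sham, with a log2 fold change of -0.15 (SE 0.29). Gm26109 had 1135, 1693 and 2463 CPM in TAC and 1925, 1966 and 2723 CPM in Sham, with a log2 fold change of -0.32 (SE 0.33). Snord68, in Rpl13, had a log2 fold change of -0.27 (SE 0.31). For Gm24494 and Snord45c, both in Rabggtb, it was -0.57 (SE 0.35) and -0.37 (SE 0.43).

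Gas5, a noncoding host gene named for its rise on growth arrest, held 7 tested members, whose log2 fold changes ran from -0.83 to 0.89, 4 above and 3 below 0, with 0 called. Gm25789 had 3610, 3664 and 3587 CPM in TAC and 2651, 2787 and 2125 CPM in Sham, with the groups apart and TAC higher. This gave a log2 fold change of 0.52 (SE 0.26) and an edgeR adjusted p of 0.314. Gm26224, from another intron, had 522, 518 and 566 CPM in TAC and 846, 791 and 1240 CPM in Sham, with the groups apart and TAC lower. Its log2 fold change was -0.83 (SE 0.29, edgeR adjusted p = 0.141, 0.0418 with the replicate block). Snord47 stood at 0.47 (SE 0.35) and Snord80 at -0.35 (SE 0.37), both with overlapping groups. All 7 members lie at least partly in exons of listed Gas5 transcripts, of which 11 were listed, 9 tested and 0 called in the unblocked fit. The Gas5 transcript whose exon holds Gm26224 had a log2 fold change of -0.06 (SE 0.26, edgeR adjusted p = 0.911). The Gas5 transcript whose exon holds Snord80 had a log2 fold change of -0.89 (SE 0.45, edgeR adjusted p = 0.318, 0.0468 with the replicate block). Gm25789 lies in an exon of the most abundant listed Gas5 transcript. That transcript had 16852, 13557 and 12793 CPM in TAC and 11847, 12315 and 8512 CPM in Sham. Its groups were apart with TAC higher, at 0.40 (SE 0.24, edgeR adjusted p = 0.382). Over the 9 tested Gas5 transcripts the log2 fold change ran from -0.89 to 0.40.

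Snhg1, another noncoding host, held 7 members, of which 4 were tested, with log2 fold changes between -0.28 and 0.10. Gm25855 had 2035, 2022 and 2050 CPM in TAC and 1906, 2569 and 1226 CPM in Sham, with TAC within the range of Sham. Gm22680 had 1258, 1642 and 2086 CPM in TAC and 1780, 1435 and 2452 CPM in Sham. The log2 fold change was 0.10 (SE 0.31) for Gm25855 and -0.18 (SE 0.31) for Gm22680. The Rpl13a introns hold Snord32a, Snord33 and Snord34, of which Snord32a and Snord33 were linked in hamster and mouse cells to the response to lipid overload. Snord32a had 113, 177 and 261 CPM in TAC and 177, 208 and 428 CPM in Sham, with a log2 fold change of -0.49 (SE 0.44, edgeR adjusted p = 0.597). Snord33 had 215, 215 and 450 CPM in TAC and 278, 281 and 399 CPM in Sham, with a log2 fold change of -0.09 (SE 0.37). Snord34 had 102, 152 and 144 CPM in TAC and 75.7, 62.4 and 242 CPM in Sham, with a log2 fold change of 0.18 (SE 0.53). None of the 3 passed the test, and their groups overlapped.

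SnoRNAs put on a list for ribosomal RNA processing were listed 11 times and tested 9 times, with 6 log2 fold changes above 0, 3 below and 0 called. The annotation names the U3 genes Rnu3a and Rnu3b1 to Rnu3b4, and these were taken as the U3 entries of the list. Rnu3b3 had 3466, 4018 and 5134 CPM in TAC and 3288, 3963 and 5390 CPM in Sham, a log2 fold change of 0.00 (SE 0.28). Its near copies Rnu3b1, Rnu3b2 and Rnu3b4 stood at 0.19 (SE 0.29), 0.42 (SE 0.28) and -0.29 (SE 0.28). Of these only Rnu3b2 had groups apart, with TAC higher (edgeR adjusted p = 0.419). Gm23927, Gm24826 and Gm24949, of no assigned class and outside this list, are 95.8%, 94.9% and 95.4% identical to Rnu3b3. They stood at -0.24 (SE 0.38), 0.81 (SE 0.42) and -0.25 (SE 0.39). Reads can be split among all these copies. Snord118 (U8), needed for the large ribosomal subunit, had 348, 455 and 342 CPM in TAC and 492, 624 and 414 CPM in Sham. The groups overlapped, since TAC 2 lay above Sham 3, and the log2 fold change was -0.43 (SE 0.30, edgeR adjusted p = 0.450). Snord14c (U14) had 440, 468 and 225 CPM in TAC and 290, 229 and 114 CPM in Sham. Snord14c, whose groups overlapped, had a log2 fold change of 0.77 (SE 0.40) and an edgeR adjusted p of 0.327, or 0.0468 with the replicate block. Snord14d, 97.7% identical to it and also in Hspa8, stood at 0.34 (SE 0.42, edgeR adjusted p = 0.693, 0.318 with the replicate block). Its groups overlapped too, and reads can be split between these copies.

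The unannotated sequences included the 3′ parts of 2 C/D members. They are listed apart from the transcript counts, whose fragments have no positions in the files, so the sequences are shown only for themselves. In the sequences below, capitals mark the stretch found among the unannotated sequences. Snord118 lies at chr11:69073427-69073561 and Snord104 at chr11:106500993-106501062, both on the plus strand.
Snord118: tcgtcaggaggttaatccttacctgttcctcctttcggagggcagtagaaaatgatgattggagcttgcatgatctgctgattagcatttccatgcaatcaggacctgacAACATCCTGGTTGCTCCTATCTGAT
Snord104: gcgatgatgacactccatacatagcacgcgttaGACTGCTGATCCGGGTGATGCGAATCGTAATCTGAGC
The 3′ fragment of Snord118 had 20, 21 and 12 UMIs in TAC 1, 2 and 3, and 29, 27 and 10 UMIs in Sham 1, 2 and 3. That of Snord104 had 1, 1 and 11 UMIs in TAC and 6, 7 and 21 UMIs in Sham, with the libraries numbered 3 highest in both groups. Both sequences run through the D box letters to the annotated 3′ end. In all, 5 of the 1832 unannotated sequences overlapped a snoRNA or scaRNA gene on its strand.

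The 7 scaRNAs were scarce. Together they had 368, 430 and 746 CPM in TAC and 751, 624 and 998 CPM in Sham, with TAC 3 above Sham 2. The mean was higher in TAC for 1 of them and lower for 6, where it was higher for 165 and lower for 186 of all 351 listed RNAs. Of the 7, 3 were tested. The near copies Scarna17, with a log2 fold change of -0.51 (SE 0.57), and Gm25443, with -0.49 (SE 0.49), had overlapping groups, as did Gm25395 with -0.32 (SE 0.55). Scarna9 had 1, 1 and 4 UMIs in TAC and 9, 10 and 10 UMIs in Sham. Scarna2 had 1, 4 and 4 UMIs in TAC and 14, 8 and 5 UMIs in Sham. Both had groups apart in CPM with TAC lower, on too few UMIs to be tested, where 9.69% of all listed RNAs lay apart in this way.

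Some snoRNA and scaRNA genes hold annotated miRNAs, which the files count in the miRNA table. Of 22 mature miRNAs inside 14 such genes, 11 were listed and 10 tested, of which 3 were called higher in TAC and 0 lower by edgeR, where 6.21% of all 322 tested miRNAs were called higher. With the replicate block 4 were called higher and 0 lower, against 12.7% called higher, the fourth being miR-1839-5p (log2 fold change 0.53, SE 0.25, edgeR adjusted p = 0.194, 0.0497 with the block). The median log2 fold change was 0.58 over the 10 and 0.04 over all tested miRNAs, and 9 of the 10 lay above 0. The mature sequences of the 3, from RefSeq on GRCm38.p6, are given with the seed, bases 2 to 8, in capitals. The scaRNA genes Scarna3a and Scarna3b hold miR-1843b-5p and miR-1843a-5p, and the H/ACA gene Snora36b holds miR-664-3p. None of these 3 genes was listed among the other RNAs. The mature sequences of miR-1843a-5p and miR-1843b-5p differ only by a shift of their ends, so their calls are not independent.
miR-664-3p: uAUUCAUUuacuccccagccua
miR-1843a-5p: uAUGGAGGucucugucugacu
miR-1843b-5p: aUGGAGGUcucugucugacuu

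In CPM of miRNA UMIs, miR-664-3p had 99.1, 75.3 and 53.7 in TAC 1, 2 and 3, and 26.4, 29.9 and 45.0 in Sham 1, 2 and 3. The lowest TAC library lay above the highest Sham library, with TAC 3 nearest to Sham 3. It rose by 1.19 on the log2 scale (SE 0.33, edgeR adjusted p = 0.0389), and passed without TAC 3 (0.0273) or Sham 3 (0.0165). The call was lost without TAC 1 (0.133), TAC 2 (0.110), Sham 1 (0.150) or Sham 2 (0.130), each an edgeR adjusted p. The other strand of its hairpin, miR-664-5p, had 6.24, 9.29 and 18.4 CPM in TAC and 13.3, 15.6 and 27.4 CPM in Sham. Its log2 fold change was -0.71 (SE 0.47, edgeR adjusted p = 0.312), so the strands of 1 hairpin stood on opposite sides of 0, a difference that was not itself tested. The 5p strands in Scarna3b and Scarna3a were called as well. In Scarna3b, miR-1843a-5p had 352, 253 and 265 CPM in TAC and 124, 112 and 104 CPM in Sham. Its log2 fold change was 1.36 (SE 0.23, edgeR adjusted p = 0.00807), and it passed on leaving out any 1 library (0.0104 to 0.0464). In Scarna3a, miR-1843b-5p stood at 1.10 (SE 0.24, edgeR adjusted p = 0.0188). It was not called without TAC 1, TAC 2, Sham 1 or Sham 2 (edgeR adjusted p from 0.0667 to 0.0790). The mature sequences of miR-1843a-5p and miR-1843b-5p are the same apart from a shift by 1 base, so they can share reads and are not independent. The 3p strands stood at 0.57 (SE 0.30) for miR-1843a-3p and 0.57 (SE 0.49) for miR-1843b-3p and were not called.

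**Figure D5:**
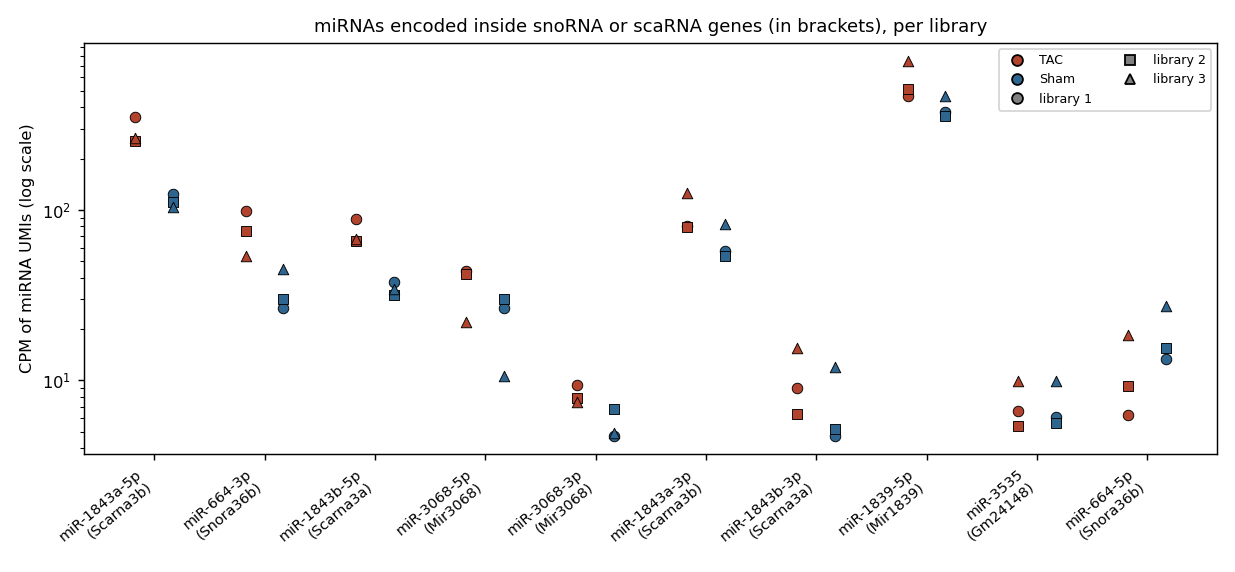
CPM of miRNA UMIs, on a log axis, of the 10 tested miRNAs inside snoRNA or scaRNA genes (gene in brackets), ordered by log2 fold change; each point is a library, TAC left of Sham, with a marker for each library number. The groups are apart, with TAC higher, for miR-1843a-5p, miR-664-3p, miR-1843b-5p, miR-1839-5p and miR-3068-3p and overlap for the other 5. The share of all miRNAs with groups apart was not computed, so this describes single miRNAs and not the set.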

How the data were processed

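Small RNA libraries were made from 100 ng of total RNA with the QIAseq miRNA kit, which tags molecules with UMIs, per the labels' protocols. The authors deposited raw counts of UMIs and of reads per feature, per the file headers. Per the submitters' processing notes, reads were placed on GRCm38. No source used here gives the aligner or the rule for shared reads. The samples' descriptions tied each column to its sample. UMI counts of the whole other-RNA table (351 transcripts, ribosomal RNA included) were tested with edgeR 4.0.16 in R 4.3.3. TMM factors, filterByExpr (minimum count 10, minimum total 15), the two-sided quasi-likelihood F test and Benjamini-Hochberg adjustment over the 245 tested rows were used, with a threshold of 0.05. Each SE is the log2 fold change divided by the square root of F. miRNA counts were fitted alike. The script was tested on simulated counts. Python 3.11.15 made the tables.

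Members and lists were chosen with earlier results of these data known. The naming rule took the 12 members of highest mean CPM, the 6 smallest p in each direction, Snora44 and Snord70, the tested members of lists of 4 or fewer, and up to 4 of longer lists. Other members named were chosen after their values were seen. Alternatives were RLE and upper-quartile factors, library sizes only, miRNA UMIs as library sizes, no filter, read counts, DESeq2 1.42.0, limma-voom 3.58.1, a threshold of 0.1, the replicate block and leaving out libraries. Leaving out ribosomal RNA, summing members at least 90% identical, and all alternatives for the H/ACA sum were chosen after seeing the data.

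The labels number libraries 1 to 3 in each group. Deviations of log2 CPM from the group means, over 245 other RNAs, correlated between same-numbered libraries with r = 0.29, 0.28 and 0.45 for numbers 1, 2 and 3. All exceed 0.1, the limit set for taking the numbers as pairs. TAC 2 with Sham 1 (r = 0.20) and TAC 1 with Sham 2 (r = 0.14) exceed it too. The limit therefore does not tell numbers 1 and 2 apart. Pairs of a library numbered 3 with one of another number had r from -0.36 to -0.29. Within a group the deviations sum to 0, so the likeness of the libraries numbered 3 also raises r among libraries 1 and 2, same-numbered or not. Counts per library limit precision, and libraries of low depth give wide errors.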

Additional observations from a re-analysis of the deposited data

How the results depend on the processing

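The number of members called, 0, was 5 with library sizes only, 1 with DESeq2, 6 at a threshold of 0.1, 16 with the replicate block and 11 without both libraries numbered 3. It ran from 0 to 11 on leaving out 1 library and was 0 under the other alternatives. Over all other RNAs the count, 7, was 15 with library sizes only, 11 with DESeq2, 22 at a threshold of 0.1, 37 with the replicate block and 32 without both libraries numbered 3, and 3 to 26 on leaving out 1 library. With miRNA UMIs as library sizes 7 were higher and 1 was lower. The calls under the replicate block rest on the pairing of the libraries by number. Library sizes only shifted the median log2 fold change of all tested other RNAs by 0.13 and miRNA UMIs by -0.27. The median of the members, -0.10, was -0.40 with miRNA UMIs, and the log2 ratio of their mean share, -0.02, was -0.41. The log2 ratio of the H/ACA sum, 0.59, was 0.70 with library sizes only, 0.31 with miRNA UMIs and 0.26 without its 4 named members, and 0.53 to 0.63 on leaving out 1 library. For the 36 named members, 578 of 636 values kept direction and call, 31 newly passed the threshold and 27, in 10 members, changed sign. With miRNA UMIs the log2 fold change was -0.13 for Gm25855, -0.15 for Snord34, -0.29 for Rnu3b3 and -0.092 for Rnu3b1. For Rnu3b3 it was -0.041 with RLE factors and -0.040 by DESeq2, and for Snord33 0.035 with library sizes only. Without both libraries numbered 3 it was -0.16 for Gm25855 and 0.026 for Gm25395. On leaving out 1 library the values ran through 0, over -0.16 to 0.41 for Gm25855, -0.82 to 0.14 for Snora31, -0.39 to 0.083 for Snord85, -0.55 to 0.20 for Snord33 and -0.39 to 0.038 for Gm22680. They ran over -0.18 to 0.88 for Snord34, -0.18 to 0.19 for Rnu3b3, -0.66 to 0.13 for Snord64 and -0.56 to 0.054 for Gm25395. The cause was not tested. Many members had under 20 UMIs in some library, which widens the error of their fold changes.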

Other observations

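Mir3068 is listed both as an H/ACA snoRNA, with a log2 fold change of 0.09 (SE 0.35), and through its miRNAs miR-3068-5p (0.66, SE 0.44) and miR-3068-3p (0.58, SE 0.30). None of the 3 was called. The Y RNA Rny3, outside the members, had 736, 733 and 1106 CPM in TAC and 2310, 1758 and 1882 CPM in Sham, with a log2 fold change of -1.21 (SE 0.30) and an adjusted p of 0.0540 with edgeR, 0.00777 with the replicate block. With that block 7.35% of all tested other RNAs were called lower. The more abundant Y RNA Rny1 had 11463, 8705 and 8073 CPM in TAC and 11910, 10453 and 8741 CPM in Sham. Its groups overlapped, with a log2 fold change of -0.14 (SE 0.25, edgeR adjusted p = 0.780). An unannotated sequence at the 5′ end of Snord61, which is not among the members, had 9, 9 and 15 UMIs in TAC 1, 2 and 3, and 1, 7 and 1 in Sham 1, 2 and 3.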
